A study of Homo sapiens with 9 samples.

Results

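The enzymes that write, copy and remove DNA methylation were followed at the RNA level in HT-29 cells exposed to a drug that acts on some of these same enzymes. The set holds 10 genes, taken by symbol from the 23284 symbols in the files: the methyltransferases DNMT1, DNMT3A and DNMT3B with the catalytically inactive cofactor DNMT3L, the ring finger proteins UHRF1 and UHRF2, the dioxygenases TET1, TET2 and TET3, and the DNA glycosylase TDG. All 10 symbols were present on 1 entry each. HT-29 cells derive from a human colon adenocarcinoma, and no other line was used. There were 9 cultures in 3 groups of 3: the 0 µM group received dimethyl sulfoxide, the vehicle, and the other groups received 5 µM or 10 µM 5-Aza-deoxycytidine (5-Aza), all for 5 days. RNA from each culture was sequenced separately with paired 100 nt reads, and expression was given as FPKM, the number of sequenced fragments scaled to transcript length and library size.

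DNMT1 copies methylation onto the new strand after replication. It is brought to hemimethylated CpG by UHRF1, which binds such sites and ubiquitinates histone H3, while UHRF2 is a related protein with a less settled role. DNMT3A and DNMT3B methylate unmethylated DNA, and DNMT3L stimulates them, mainly in germ cells. The TET enzymes oxidise 5-methylcytosine, and TDG cuts out the most oxidised products so that base excision repair can restore cytosine. 5-Aza is a cytidine analogue that is built into DNA and traps methyltransferase protein there. The values below are RNA levels and say nothing about protein or methylation.

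UHRF1, the member called at both doses, has a CpG-dense promoter, and a stretch of it is shown because CpG methylation is what the enzymes and the drug act on. Capitals mark CpG. The stretch is GRCh37 sequence on the plus strand, free of annotated exons, at chr19:4909263-4909441, the exon-free part of the RefSeq promoter window, which lies inside the annotated gene span (chr19:4903092-4962165).
UHRF1: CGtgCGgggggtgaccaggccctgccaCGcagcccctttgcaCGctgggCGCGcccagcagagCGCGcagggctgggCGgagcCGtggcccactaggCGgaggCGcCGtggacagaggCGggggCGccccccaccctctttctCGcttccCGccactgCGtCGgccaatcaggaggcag
It holds 19 CpG in 179 bases. RefSeq promoter windows were given for 9 of the 10 genes, all but DNMT3L. In the 250 bases before the RefSeq start, the number of CpG was 21 for DNMT1, 21 for DNMT3A, 28 for UHRF1, 23 for UHRF2, 9 for TET1, 10 for TET2, 37 for TET3 and 22 for TDG, against a median of 11 over 27305 promoters. The DNMT3B window, which lies inside the annotated gene span as those of DNMT1 and UHRF1 do, holds 3 CpG. In the DNMT1 window 182 of the 250 bases lie in annotated exons. The windows were also searched on both strands for 4 words of the type bound by E2F factors, which drive S phase genes: the word TTGGCGC, the word TTCGCGC, the word TTCCCGC and the word TTGCCGC. At least 1 of these words lay in the window of UHRF1, UHRF2, TET3 and TDG, so 44.4% of the 9 windows held one, against 11% of all promoters. UHRF1 alone among the 9 had 2 of them, and the TTCCCGC copy lies in the stretch printed above. Each word holds a CpG, and the 9 windows had a median of 21 CpG, against 11 over all promoters. The shares are not adjusted for this. A match of letters is not evidence of binding.

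The files give no read totals, so depth was estimated from the size of the steps in low values. The estimated number of counting units over all genes ran from 11781475 in 10 µM replicate 1 to 32203588 in 5 µM replicate 3. The unit may be a read or a fragment. The 3 libraries at 5 µM were each estimated deeper than at least 5 of the 6 others, while the 0 µM and 10 µM libraries overlapped in depth. Depth was thus uneven between the groups, and its part in the results was not tested. Colon epithelial markers were present in every group (12 of 12 above 0), with a summed level of 90372031 to 108696953 FPKM in the 0 µM libraries, 37871091 to 42497402 at 5 µM and 29667816 to 52140264 at 10 µM. The summed level of 13 markers of other cell types was 19915 to 31999, 117888 to 144212 and 69525 to 75912 FPKM in the same order. In the 0 µM group CD3E, CDH5, ALB and HBB were at 0 in all 3 libraries. The colon sum leans on KRT8 (mean 39381667 at 0 µM and 12559833 FPKM at 5 µM) and KRT18 (32981667 and 10580903). Its 12 markers did not move together. By the limma test described below, 7 fell and 3 rose (CDX1, CEACAM5 and MUC2) in 5 µM vs. 0 µM. EPCAM and CDH1 did not pass there. The part of these shifts in the results below was not tested. In bulk RNA, fewer cells that express a gene and less of its RNA per cell cannot be told apart.

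In untreated cells the set spanned the range from well expressed to hardly detected. TET3 (152103 ± 3459 FPKM, SD, n = 3) and TDG (144590 ± 13040) were highest and overlapped. DNMT1 (114957 ± 8104) and UHRF2 (114313 ± 3314) came next and also overlapped. Below them DNMT3A (94746 ± 2756), TET2 (39149 ± 1176), UHRF1 (17886 ± 853) and DNMT3B (4117 ± 1665) followed without overlap between neighbours. DNMT3L and TET1 were at the floor. FPKM is scaled to length, so these levels may be compared between genes as far as that scaling holds. The order of genes at close levels is approximate. The mean of UHRF1 was above that of TET2 at both doses, with overlapping replicates, and at 10 µM DNMT1 had the highest mean, although its replicates overlapped those of TDG.

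**Figure D1:**
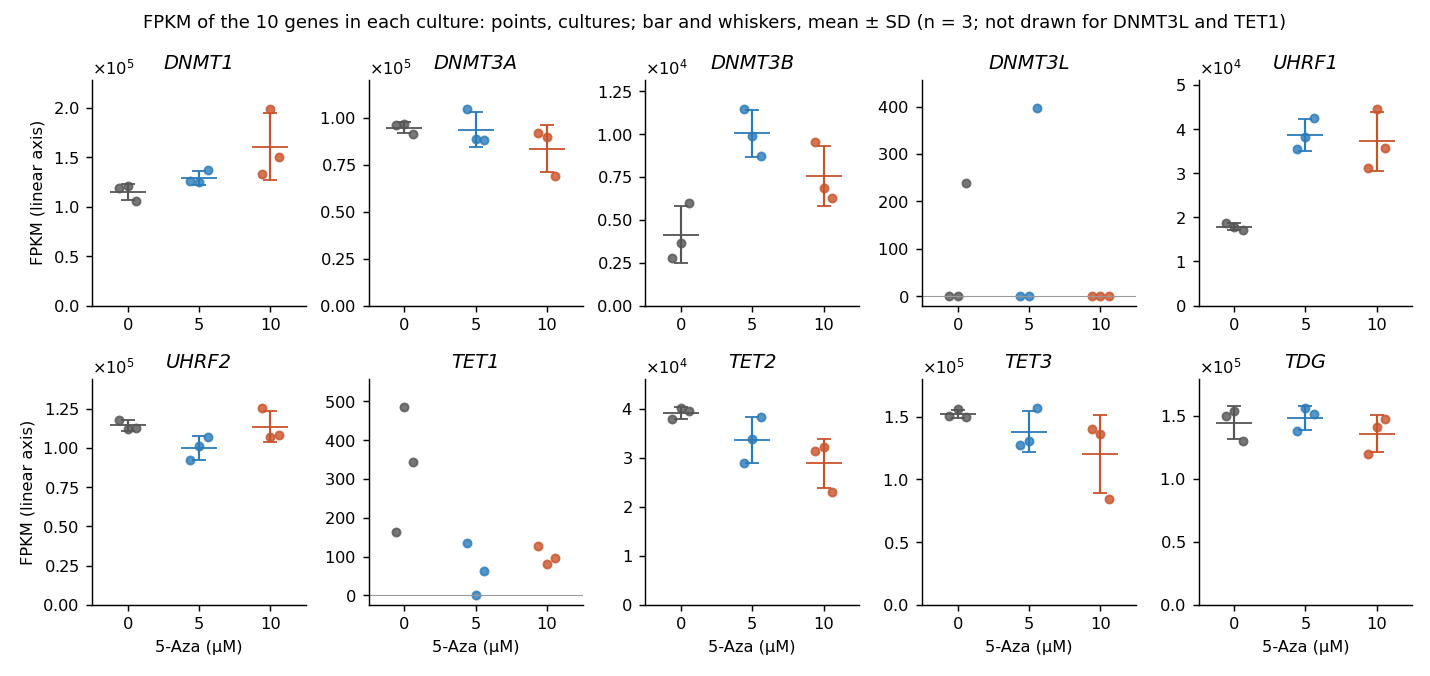
Level of each of the 10 genes in every library, in FPKM on a linear axis that differs between panels, against 5-Aza concentration; points are libraries and bars are the mean ± SD of 3, left out for DNMT3L and TET1, which are listed at 0 in some libraries. UHRF1 sits between 17139 and 18816 FPKM in the 0 µM libraries and at 31236 or more in all 6 treated libraries. DNMT3A, DNMT3L, UHRF2, TET2, TET3 and TDG overlap the 0 µM libraries in at least 1 dose.

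In 5 µM vs. 0 µM, UHRF1 and DNMT3B rose more than 2-fold and no member of the set fell. A gene was called when its change exceeded 2-fold and limma, run on log2(FPKM + 1), gave an adjusted p (Benjamini-Hochberg, over all tested genes) no higher than 0.05. All 10 members were tested, and 2 were called up and 0 down, beside 14.1% of 20051 tested genes called up and 2.17% called down. Without the 2-fold limit the member counts were still 2 and 0, beside 21.3% up and 17.7% down. Groups did not overlap for 3 members that were higher at 5 µM (DNMT1, DNMT3B and UHRF1) and 2 that were lower (UHRF2 and TET1), beside 29.4% and 23.2% of tested genes. The median log2 difference of the members was 0.01, that of all tested genes 0.14 and that of the 15418 genes above 0 in all 6 libraries -0.04. As a share, the members called do not stand clear of this background.

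In 10 µM vs. 5 µM no member was called and none passed the adjusted p, in either direction, with limma. The number at an unadjusted p under 0.05 was also 0, and all 10 pairs of groups overlapped. Over the 20085 genes tested, 0.129% were called up and 4.82% down, 0.319% and 5.85% passed without the 2-fold limit, and 4.37% and 25.3% had groups that did not overlap, higher and lower. In 10 µM vs. 0 µM 1 member was called up (UHRF1) and 0 down, beside 4.07% and 3.4% of 18928 tested genes, and the same 1 and 0 passed without the 2-fold limit, beside 5.39% and 9.71%. DNMT1, DNMT3B and UHRF1 were higher without overlap, and TET1, TET2 and TET3 lower, beside 14.4% and 26.7% of tested genes. An unadjusted limma p under 0.05 was reached by 3 members in 10 µM vs. 0 µM and by 2 in 5 µM vs. 0 µM. The 3 were UHRF1, DNMT1 (95% interval 0.06 to 0.86, log2) and TET2 (-0.90 to -0.01). The share of all tested genes at this limit is not given here. The 3 comparisons share libraries, so they are not independent of each other.

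**Figure D2:**
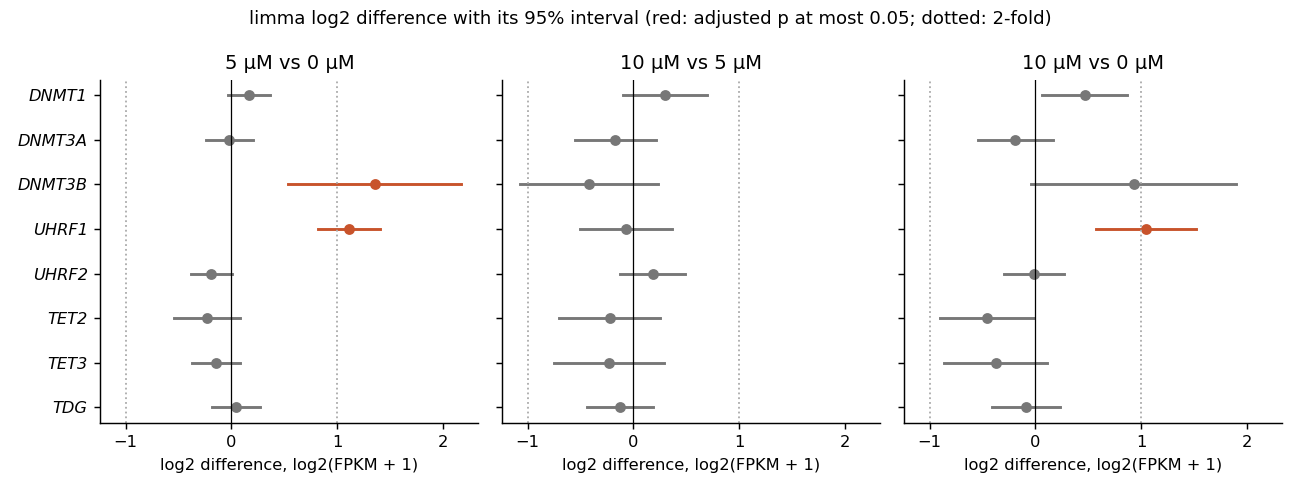
Log2 difference on the log2(FPKM + 1) scale with its 95% interval for 8 members in the 3 comparisons; DNMT3L and TET1, which rest on almost no counting units, are not drawn. UHRF1 lies near 1 in 5 µM vs. 0 µM (1.11) and in 10 µM vs. 0 µM (1.04) and near 0 in 10 µM vs. 5 µM (-0.07).

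UHRF1 was called at both doses against 0 µM. It stood at 18816, 17703 and 17139 FPKM in the 0 µM libraries. At 5 µM the values were 35403, 38236 and 42478 FPKM, and at 10 µM 31236, 44516 and 35819.7 FPKM. Every treated library was well above every 0 µM library, and the treated groups overlapped each other. The rise was 2.16-fold at 5 µM (95% interval 1.77 to 2.64, log2 difference 1.11 ± 0.12 SE, limma adjusted p = 0.000995) and 2.06-fold at 10 µM (1.48 to 2.85, log2 1.04 ± 0.20, adjusted p = 0.0207). Both folds lie so near the 2-fold limit that a test against the limit itself (limma's treat) called neither. The 10 µM vs. 5 µM difference was -0.07 on the log2 scale, with an interval from -0.50 to 0.36. The 10 µM call did not stand without any 1 of the 0 µM libraries or without 10 µM replicate 2 or 3. Single-gene exact permutation tests of 3 against 3 cannot go below 0.1, the value they gave for UHRF1 at both doses against 0 µM.

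DNMT1, which UHRF1 guides to DNA, changed less. Its values were 118668, 120542 and 105662 FPKM at 0 µM, 125705, 124596 and 137102 FPKM at 5 µM, and 133288, 198309 and 149939 FPKM at 10 µM. Each treated library exceeded each 0 µM library, and the highest value was 10 µM replicate 2. The log2 difference was 0.17 ± 0.08 (SE) at 5 µM (adjusted p = 0.146) and 0.46 ± 0.17 at 10 µM (adjusted p = 0.1001), so neither passed in limma. Passing the adjusted p depended on the scaling of the libraries, and under each scaling the change stayed below 2-fold. With median-of-ratios scaling, DNMT1 passed in 10 µM vs. 0 µM (0.71, adjusted p = 0.00608) and in 10 µM vs. 5 µM (0.50, adjusted p = 0.0345). With libraries scaled to equal totals it passed in 5 µM vs. 0 µM (0.46, adjusted p = 0.00452) and in 10 µM vs. 0 µM (0.84, adjusted p = 0.00304). These scalings moved the median of all tested genes by 0.24 and 0.38 in 10 µM vs. 0 µM. With all 9 samples in one fit DNMT1 also passed at 10 µM vs. 0 µM, at 0.46 (adjusted p = 0.0435). The rank of DNMT1 among all symbols, which no scaling alters, was between 6701 and 7011 from the top at 0 µM. It was between 5989 and 6403 at 5 µM and between 4598 and 5085 at 10 µM. A rank also moves when other genes move, so it is no measure of a rise by itself. TDG, for which the difference was near 0, ranked between 5821 and 6248 at 0 µM and between 4918 and 5893 at 10 µM. TET3 ranked between 5675 and 5893 at 0 µM and between 4884 and 6995 at 10 µM.

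UHRF2, unlike its relative UHRF1, did not pass at either dose. It measured 118110, 112001 and 112827 FPKM at 0 µM, 92016, 101433 and 107093 FPKM at 5 µM, and 125142, 107092 and 108520 FPKM at 10 µM. The 5 µM libraries lay below the 0 µM libraries without overlap (log2 difference -0.19 ± 0.08 SE, limma adjusted p = 0.104). With total scaling this log2 difference took the opposite sign (0.094, limma adjusted p = 0.406). The 10 µM libraries overlapped the 0 µM libraries (-0.01, interval -0.30 to 0.27).

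DNMT3B, the lowest of the active methyltransferases, rose 2.55-fold at 5 µM (95% interval 1.45 to 4.51). The 0 µM values were 2755, 3622 and 5973 FPKM. The 5 µM values were 11452, 9901 and 8749 FPKM, and the 10 µM values 9539.6, 6869.6 and 6268 FPKM. Neither treated group overlapped the 0 µM group, but 10 µM replicate 3 was close to the highest 0 µM library. The log2 difference was 1.35 ± 0.34 (SE) at 5 µM (limma adjusted p = 0.0221) and 0.93 ± 0.41 at 10 µM (adjusted p = 0.155). The 10 µM vs. 5 µM difference was -0.42, with an interval from -1.08 to 0.23. DNMT3B rested on an estimated 14.6 to 67.8 counting units at 0 µM, 120 to 146 at 5 µM and 56.7 to 73.3 at 10 µM. Counting error is thus larger for DNMT3B than for the other active methyltransferases. Its 5 µM call was lost without 0 µM replicate 2 (adjusted p = 0.0558) and without 5 µM replicate 1 (0.0790), 2 (0.0666) or 3 (0.0581), and treat against 2-fold did not call it (0.778).

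DNMT3A, the main de novo enzyme of these cells by RNA level, showed no change past the test. Its values were 96239.9, 96433 and 91566 FPKM at 0 µM, 104586, 88586 and 87910 FPKM at 5 µM, and 91983, 89815 and 68947 FPKM at 10 µM. All groups overlapped, with 10 µM replicate 3 the lowest library. The log2 difference was -0.02 at 5 µM (interval -0.24 to 0.20, limma adjusted p = 0.872) and -0.19 at 10 µM (interval -0.55 to 0.16, adjusted p = 0.394), and it took the opposite sign under both other scalings. DNMT3L was listed at 0 in 7 of the 9 libraries and at 239.6 and 397 FPKM in 0 µM replicate 3 and 5 µM replicate 3, which is an estimated 0.78 and 1.55 counting units, so no level can be given.

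None of the 3 TET genes passed the test in either direction. TET3 stood at 150622, 156056 and 149631 FPKM at 0 µM, 127469, 130395 and 156523 FPKM at 5 µM, and 139900, 136531 and 84067 FPKM at 10 µM. The 10 µM libraries were all below the 0 µM libraries, and 10 µM replicate 3 was far below the other two. TET2 stood at 37823, 40064 and 39561 FPKM at 0 µM, 28841, 33815 and 38293 FPKM at 5 µM, and 31405, 32175 and 23088 FPKM at 10 µM, again without overlap between 10 µM and 0 µM and again lowest in 10 µM replicate 3. In 10 µM vs. 0 µM the log2 difference was -0.45 ± 0.19 (SE) for TET2 (limma adjusted p = 0.134) and -0.38 ± 0.21 for TET3 (adjusted p = 0.227). With total scaling the difference was -0.07 for TET2 and 0.0020 for TET3, and without 10 µM replicate 3 it was -0.14 for TET3. In 5 µM vs. 0 µM it was -0.23 for TET2 (adjusted p = 0.203) and -0.14 for TET3 (adjusted p = 0.261), and both took the opposite sign with total scaling. Without 5 µM replicate 3 the TET3 difference was -0.24 and passed (adjusted p = 0.0456).

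TET1 was near the limit of detection. It was listed at 163, 485 and 343 FPKM at 0 µM, at 135, 0 and 63.2 FPKM at 5 µM, and at 128, 81.0 and 95.6 FPKM at 10 µM. These are an estimated 1.97, 8.86 and 8.86 counting units at 0 µM, 3.94, 0 and 1.97 at 5 µM, and 1.97 in each library at 10 µM. The treated libraries were below the 0 µM libraries, but the limma adjusted p was 0.161 at 5 µM and 0.285 at 10 µM, and a difference was not detectable at these few units. TDG, which acts after the TET enzymes, was at 150159, 153921 and 129690 FPKM at 0 µM, 137708, 155811 and 151693 FPKM at 5 µM, and 119535, 141016 and 147149 FPKM at 10 µM. Its groups overlapped throughout, with a log2 difference of 0.04 at 5 µM (interval -0.19 to 0.26) and -0.09 at 10 µM (interval -0.41 to 0.23). With total scaling TDG passed in 5 µM vs. 0 µM (0.33, adjusted p = 0.0116).

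Ratios of members within a library do not depend on the scaling term of that library. Relative to DNMT1, UHRF1 RNA was 0.156 ± 0.0080 (SD, n = 3) at 0 µM, 0.299 ± 0.0155 at 5 µM and 0.233 ± 0.0074 at 10 µM. The 3 groups were fully separate, with 5 µM highest. The exact 2-sided permutation p was 0.1 in each comparison, the smallest that 3 against 3 allows, and 0.2 after adjustment over 18 ratio tests. The UHRF2 to UHRF1 ratio was 6.40 ± 0.16 at 0 µM, 2.59 ± 0.07 at 5 µM and 3.15 ± 0.81 at 10 µM, with both treated groups below the 0 µM group. The DNMT3A to DNMT1 ratio went from 0.826 ± 0.036 at 0 µM to 0.728 ± 0.097 at 5 µM, which overlapped it, and 0.534 ± 0.135 at 10 µM, which did not. The DNMT3B to DNMT1 ratio was 0.0366 ± 0.0176, 0.0781 ± 0.0137 and 0.0493 ± 0.0196, and only the 5 µM group was separate from 0 µM. The TET3 to TET2 ratio was 3.89 ± 0.10, 4.12 ± 0.28 and 4.11 ± 0.42, and its groups overlapped in every comparison. DNMT1 was also set against PCNA, the replication clamp that binds it, and this ratio was 0.430 ± 0.026 at 0 µM, 0.338 ± 0.046 at 5 µM and 0.384 ± 0.023 at 10 µM, lower in both treated groups without overlap. No ratio can reach an adjusted p of 0.05 by this exact test with 3 libraries a group.

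**Figure D3:**
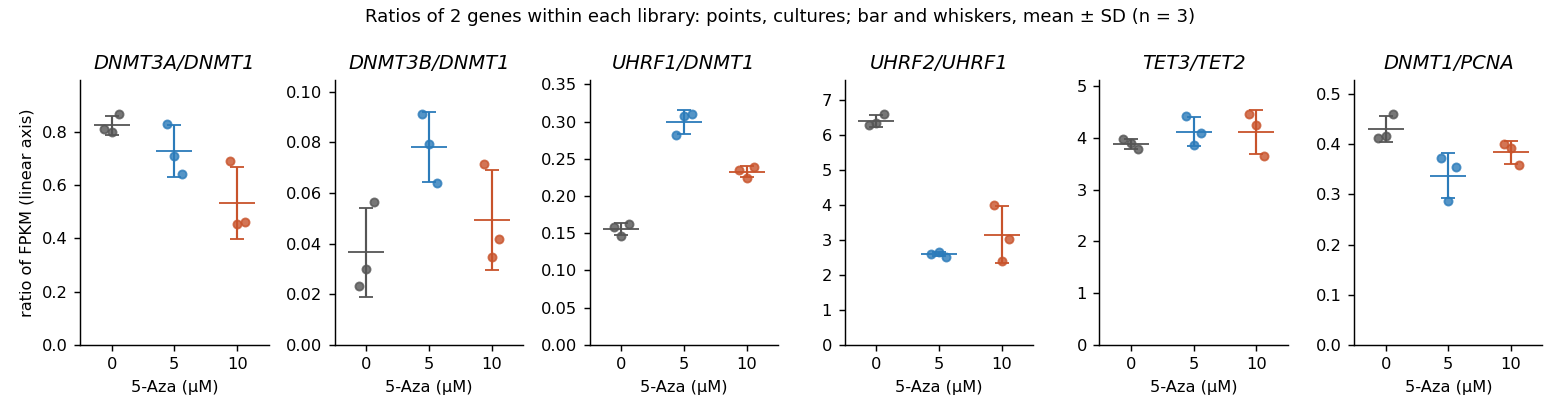
Ratios of 2 genes within each library, on a linear axis, against 5-Aza concentration, with 3 libraries per group and the mean ± SD. The UHRF1 to DNMT1 ratio separates all 3 groups (linear means 0.156, 0.299 and 0.233), and the TET3 to TET2 ratio overlaps in all of them.

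Genes that work with the set are given next. Their counts stand against the 21.3% of tested genes that passed upward and the 17.7% that passed downward in 5 µM vs. 0 µM. These shares were 0.319% and 5.85% in 10 µM vs. 5 µM, and 5.39% and 9.71% in 10 µM vs. 0 µM. Of 18 partners of maintenance methylation, 17 were tested. In 5 µM vs. 0 µM 4 passed upward and 5 downward, shares near the background of that comparison. LIG1, the ligase of Okazaki fragments and a substrate that UHRF1 binds, rose from 77097 ± 4984 to 195452 ± 18638 FPKM (log2 1.34). CDCA7, an activator of the remodeller HELLS, fell from 122565 ± 16260 to 43344 ± 821 FPKM (log2 -1.49) and was back at 101169 ± 11893 FPKM at 10 µM (log2 1.22 against 5 µM). HELLS itself passed in all 3 comparisons, with means of 15455 ± 2009, 24047 ± 713 and 49448 ± 7027 FPKM at 0, 5 and 10 µM. PCNA rose at 5 µM (log2 0.53, limma adjusted p = 0.0224). ZFP57, an imprint-binding zinc finger protein that is also on the list of readers, was listed at 0 in the 0 µM libraries and averaged 1992 FPKM at 5 µM. The list's median log2 difference was -0.12, 0.10 and -0.04 in 5 µM vs. 0 µM, 10 µM vs. 5 µM and 10 µM vs. 0 µM, against 0.14, -0.31 and -0.15 over all tested genes and -0.04, -0.24 and -0.23 over genes above 0 in all 6 libraries.

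Of 11 readers of methylated CpG, 1 passed upward (ZFP57) and 3 downward at 5 µM, among them MBD5 (log2 -0.55) and ZBTB33, or Kaiso (-0.36). At 10 µM vs. 0 µM only MBD5 passed (-0.93), and 0 passed in 10 µM vs. 5 µM. Of 12 cofactors and regulators of TET activity, 1 passed upward and 6 downward at 5 µM, all within 2-fold. OGT, a glycosyltransferase that binds TET2 and TET3, fell by 0.67 on the log2 scale, CXXC5 by 0.56, and D2HGDH, which clears the TET inhibitor D-2-hydroxyglutarate, by 0.68. At 10 µM vs. 0 µM 3 fell, CXXC5 (-0.78), IDH1 (-0.76) and IDH3A (-0.64). The median of this list was -0.40 at 5 µM and -0.44 at 10 µM, against -0.04 and -0.23 over genes above 0 in all 6 libraries and 0.14 and -0.15 over all tested genes. Median-of-ratios and total scaling shifted all genes upward by a median of 0.04 and 0.29 in 5 µM vs. 0 µM. In 10 µM vs. 0 µM the shifts were 0.24 and 0.38. Single changes in the companion lists are not given under these scalings.

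In base excision repair, the route downstream of TDG, 6 of 18 genes passed upward and 2 downward at 5 µM, beside 21.3% and 17.7% of tested genes. FEN1, a flap endonuclease that also serves replication, rose from 90298 ± 13940 to 248835 ± 29211 FPKM (log2 1.47). GADD45B, a stress gene linked to demethylation, rose by 0.94 and NEIL1, a glycosylase, by 0.85. From 5 to 10 µM GADD45B fell by 1.64 and GADD45G by 1.05, the 2 of the 18 that passed. FEN1 (0.84) and NEIL1 (1.08) were still up at 10 µM vs. 0 µM, where LIG3 fell (-0.74). Of 19 genes of methyl donor supply, 3 passed upward and 6 downward at 5 µM, beside the same 21.3% and 17.7%. MTHFD2, a mitochondrial folate enzyme, fell by 1.18 and AHCY, which clears S-adenosylhomocysteine, by 0.78. CBS rose from 517 ± 478 to 44442 ± 4694 FPKM at 5 µM and was 8062 ± 949 FPKM at 10 µM. TYMS, thymidylate synthase, rose in all 3 comparisons and stood at 24412 ± 1977, 40645 ± 1982 and 63536 ± 2578 FPKM at 0, 5 and 10 µM.

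DNMT1 and UHRF1 belong to the genes that cycling cells use in S phase, so the cell cycle lists stand beside them. Of 21 S phase and replication genes, 12 were called up and 0 down in 5 µM vs. 0 µM (17 and 0 without the 2-fold limit). The counts called were 0 and 1 in 10 µM vs. 5 µM, and 11 and 0 in 10 µM vs. 0 µM. Over all tested genes, 14.1% were called up and 2.17% down in 5 µM vs. 0 µM (21.3% and 17.7% without the limit). These shares were 0.129% and 4.82% called in 10 µM vs. 5 µM, and 4.07% and 3.4% in 10 µM vs. 0 µM. The mitosis counts below stand against the same shares. CDC45, part of the replicative helicase, went from 14071 ± 4399 to 82366 ± 6654 FPKM at 5 µM (log2 2.60), CCNE2 rose by 2.25 and E2F2 by 2.06. The list's median log2 difference was 1.12, 0.12 and 1.18, while UHRF1 had 1.11, -0.07 and 1.04 and DNMT1 0.17, 0.29 and 0.46. Whether a shift in the cell cycle has a part in the UHRF1 or DNMT1 values was not tested. Of 12 mitosis genes, 0 were called in 5 µM vs. 0 µM, where 1 passed (CDC20, 0.91). In 10 µM vs. 5 µM 11 were called down, led by CCNB2 (-2.05), BUB1 (-2.03) and CCNA2 (-1.61), and in 10 µM vs. 0 µM 8 were called down. Medians were 0.17, -1.50 and -1.42. Under the other scalings the S phase count was 12 and 15 at 5 µM and 12 and 15 at 10 µM vs. 0 µM, and the count of mitosis genes called down was 10 and 11 in 10 µM vs. 5 µM and 7 and 6 in 10 µM vs. 0 µM, so these directions did not flip. In 5 µM vs. 0 µM, 1 and 3 mitosis genes were called up under these scalings, in place of 0. With 3 libraries a group, the mitosis count in 10 µM vs. 5 µM was 4, 3 and 2 without 5 µM replicate 1, 2 and 3. In 10 µM vs. 0 µM it was 3 and 2 without 0 µM replicate 1 and 2 and 2 and 3 without 10 µM replicate 1 and 3. The S phase count in 10 µM vs. 0 µM was 4 and 5 without 0 µM replicate 2 and 3 and 5 without 10 µM replicate 3. E2F-type words lay in 61.1% of 18 S phase promoters and in 20% of 10 mitosis promoters, against 11% of all promoters. The median number of CpG in these windows was 26 and 19.5, against 11 over all promoters, and the shares are not adjusted for CpG content.

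**Figure D4:**
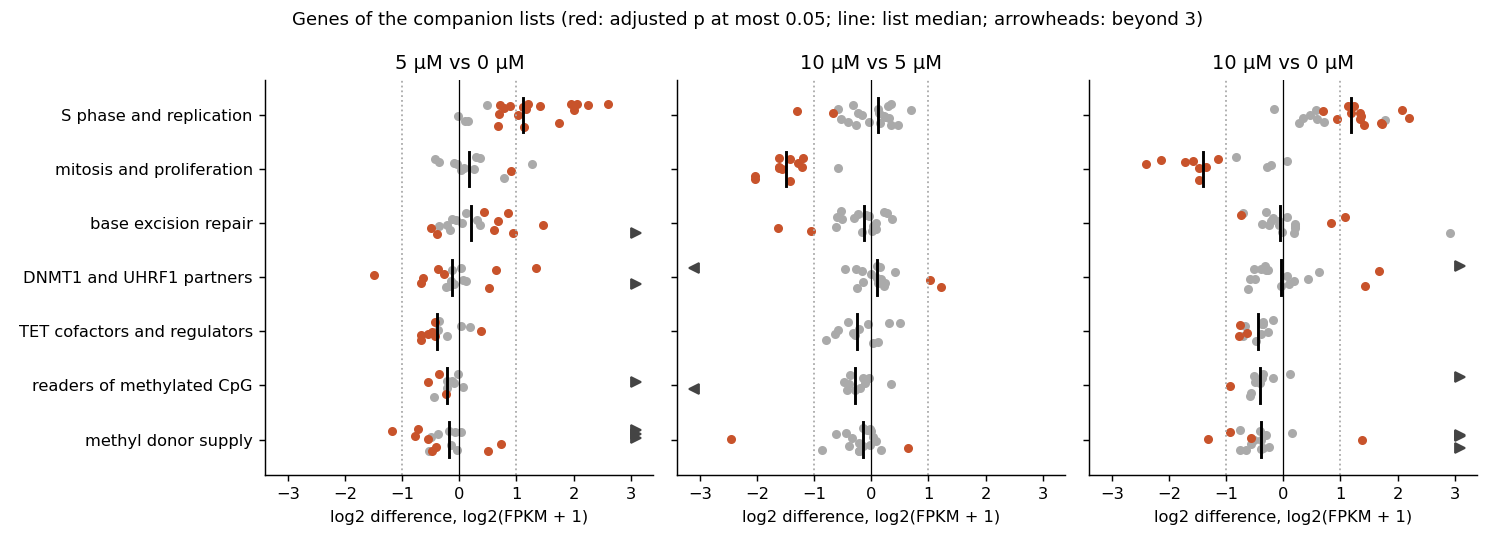
Log2 difference of each tested gene of the companion lists in the 3 comparisons, for 7 lists, with the list median as a line, red for genes past the adjusted p and arrowheads for genes beyond the axis. The S phase list has its median at 1.12 in 5 µM vs. 0 µM and 1.18 in 10 µM vs. 0 µM, and the mitosis list at -1.50 in 10 µM vs. 5 µM.

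The genes whose pattern over the 9 libraries lay nearest to a member were found by the root mean square distance between centred log2(FPKM + 1) values, among 11550 other genes with at least 10000 FPKM in every library. MCM3, a subunit of the replicative helicase, was nearest to DNMT1 at a distance of 0.086, against a median of 0.41 over all genes, and ZNF830, GTPBP5 and ACD followed. PKMYT1, a kinase that holds back mitotic entry, was nearest to UHRF1 at 0.142 (median 0.65), before ASRGL1, WFDC2, FN3KRP and GLA. SALL4, a transcription factor of embryonic cells, was nearest to DNMT3B at 0.19 (median 0.78), before LOC284581, QRICH2, ZNF37BP and PDZD7. SLC35E2B was nearest to DNMT3A at 0.073 (median 0.31), before ZNF498, CBX7, ZBTB40 and ZNF641. The libraries share their scaling term across genes, so part of any likeness can come from it, and nothing is said here of shared control.

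The study's methods discuss ZNF311 and GAPDH as reference genes. ZNF311 was chosen there because its expression rank held steady across these samples, so its values here are no independent test of stability. ZNF311 was 17070.0 ± 1232, 15639 ± 2457 and 19914.7 ± 3860 FPKM at 0, 5 and 10 µM and did not pass in any comparison. Its log2 difference in 10 µM vs. 5 µM was 0.34, with a 95% interval from -0.21 to 0.90. GAPDH, a glycolytic enzyme, fell at 5 µM by 0.72 on the log2 scale (limma adjusted p = 0.00952). It did not pass in 10 µM vs. 0 µM (-0.68, limma adjusted p = 0.259) or in 10 µM vs. 5 µM (0.04, limma adjusted p = 0.959).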

How the data were processed

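RNA-Seq was run on 9 HT-29 cultures, 3 per 5-Aza concentration. The authors aligned reads to hg19 with TopHat and deposited one FPKM value per gene and sample, from Cufflinks. The library term behind these FPKM values is not given in the sources used here, and they are far larger than FPKM usually are. Values of repeated symbols were summed. Fold changes are on the log2(FPKM + 1) scale. Against FPKM of this size a pseudocount of 1 is small, so for genes with values at 0 the fitted difference is mostly set by the pseudocount and is no measure of size. Tested genes reached 10 FPKM in at least 1 of the 6 samples compared, with limma 3.58.1 (R 4.3.3, lmFit, eBayes with trend, no replicate block) and Benjamini-Hochberg adjustment over all tested genes. Replicates are separate cultures of 1 line. Ratios and single genes were compared by exact 2-sided permutation tests.

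Counting units were estimated from the steps of low values: at microRNA genes of 110 nt, 46 of 46 values were whole multiples of a library's step (tolerance 0.01). For longer genes 124 of 264 followed one relation to length within 15%, and 68 followed 2 times that relation, so unit numbers of single genes are approximate and were not tested as counts.

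The 10 members and all lists were chosen with earlier results of these data known. Named genes are the members, the 3 largest passing changes without overlap per list and comparison, 5 nearest patterns for 4 members, ZNF311, GAPDH and PCNA. Some items that these rules select are not reported here. HELLS and TYMS means outside that rule, and which genes make up a count, were given after their values were seen. Positions are from GRCh37 with GENCODE v44lift37, the assembly also called hg19. Alternatives were other pseudocounts (0.1, 1000), filters, scalings, treat, 1 fit for all 9 samples, the replicate block and leaving out each library. The scripts were tested on simulated data.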

Additional observations from a re-analysis of the deposited data

How the results depend on the processing

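UHRF1 in 5 µM vs. 0 µM kept its direction and its adjusted p in every alternative except treat against 2-fold (1.11, adjusted p = 0.874). With treat, 0 members were called up at 5 µM and 0 at 10 µM vs. 0 µM, and the differences of DNMT3B at 5 µM (1.35) and UHRF1 at 10 µM (1.04) did not pass. Treat also left 4 S phase genes up at 5 µM, 1 up in 10 µM vs. 0 µM, and 1 mitosis gene down in each of the other comparisons. With one library left out, between 1 and 2 members were called up at 5 µM and between 0 and 1 at 10 µM vs. 0 µM. The difference of DNMT3B at 5 µM then ran from 1.10 to 1.66, and that of UHRF1 in 10 µM vs. 0 µM from 0.90 to 1.16, with an adjusted p of up to 0.0831. These fits test fewer samples. The replicate numbers did not pair the samples: same-numbered libraries correlated between -0.23 and 0.15 in their deviations and differently numbered ones between -0.31 and 0.25. With the replicate block, 1 member was called up at 5 µM in place of 2, as DNMT3B kept its difference of 1.35 at an adjusted p of 0.0605, and UHRF1 passed at 5 µM (0.0112) and at 10 µM vs. 0 µM (0.0431).

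Differences near 0 changed sign with the scaling. Median-of-ratios scaling shifted all genes by a median of 0.04, 0.20 and 0.24 in 5 µM vs. 0 µM, 10 µM vs. 5 µM and 10 µM vs. 0 µM, and total scaling by 0.29, 0.09 and 0.38. The share of upward among called genes in 10 µM vs. 0 µM was 54.5% as reported, 79.8% with median-of-ratios and 89.3% with total scaling. With median-of-ratios scaling the sign turned for DNMT3A (0.018 in 5 µM vs. 0 µM, 0.031 in 10 µM vs. 5 µM, 0.049 in 10 µM vs. 0 µM), UHRF1 and TDG in 10 µM vs. 5 µM (0.13 and 0.072), and UHRF2 and TDG in 10 µM vs. 0 µM (0.23 and 0.15). With total scaling it turned for DNMT3A, UHRF2, TET2 and TET3 in 5 µM vs. 0 µM (0.27, 0.094, 0.059 and 0.14), UHRF1 in 10 µM vs. 5 µM (0.023), and DNMT3A, UHRF2, TET3 and TDG in 10 µM vs. 0 µM (0.19, 0.37, 0.0020 and 0.29). DNMT1 and TDG passed the adjusted p under scalings given above, but no member was called that was not called before. With one library left out, values ran from -0.10 to 0.023 for DNMT3A, -2.64 to 2.88 for DNMT3L and -0.037 to 0.093 for TDG in 5 µM vs. 0 µM, from -0.21 to 0.049 for UHRF1 and -0.36 to 0.0070 for TET3 in 10 µM vs. 5 µM, and from -0.084 to 0.028 for UHRF2 in 10 µM vs. 0 µM. The log2 TET3 to TET2 ratio difference in 10 µM vs. 5 µM ran from -0.066 to 0.080. Beyond the scalings and the block the cause was not tested.

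DNMT3L and TET1 rested on fewer than 10 estimated counting units in every library, and a difference was not detectable at these levels.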
